A study of Homo sapiens with 6 samples.

Results

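Hepatobiliary transporters carry bile acids, bilirubin, hormones, drugs, sterols and copper through the hepatocyte from blood to bile. This report describes 30 genes of such carriers, found by gene name among the 50868 genes of a table of RNA sequencing counts from Huh7 cells, an established human hepatoma line. They were picked for their known transport role and not by any measured value, although earlier results of these data were known when the list was drawn up. The study asked how the circular RNA hsa_circ_0098181, which is made from exons of its host gene SOX5, acts in hepatoma cells. 3 libraries came from Huh7 cells transfected with the plasmid carrying hsa_circ_0098181 and 3 from Huh7 cells given its control plasmid. All 6 were made from total RNA 48 h after transfection with a lipid reagent (Lipofectamine). Both groups therefore share the line, the transfection reagent and the time, and all libraries come from a single cell line. The labels do not say whether replicates were separate cultures, so p-values measure the spread between these libraries, which may be technical.

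A hepatocyte is polarised. Its sinusoidal (basolateral) side faces the blood and takes up bile acids and organic anions and cations through SLC10, SLCO and SLC22 carriers, while its apical side forms the bile canaliculus, where ABC pumps and P-type ATPases move bile acids, phospholipids, sterols, copper and conjugates into bile. Further ABCC pumps and the dimer of SLC51A and SLC51B return substrates to the blood. The 30 genes were grouped by the direction they are best known for, into 11 uptake genes, 11 genes of canalicular export and 8 genes of basolateral export.

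The libraries held between 11130902 and 14138262 counts. SOX5, the host gene whose exons the plasmid carries, was between 1905 and 2396 CPM (the read count scaled by library size) with overexpression and between 31.3 and 41.8 CPM with the control plasmid, so the labels held in all 6 libraries. Mitochondrial genes took 9.29% of the counts in control replicate 1 and between 6.32% and 7.04% in the other 5 libraries. All 14 hepatocyte markers were measured, and their summed level was 24374 to 25447 CPM with overexpression and 23359 to 28566 CPM in controls. APOB was the largest part of this sum, at 6595 to 9234 CPM with overexpression and 9127 to 12939 CPM in controls. Taken singly, 11 of the 14 markers were higher with overexpression and 3 lower, and none was called. Of the defining markers of other liver cells, 3 of 9 macrophage genes and 3 of 7 endothelial genes were at 0 counts in every library, while LYZ, a macrophage gene, reached 424 to 521 CPM. The summed macrophage list, nearly all of it LYZ, was 492 to 535 CPM with overexpression and 440 to 477 CPM in controls, and the part of such RNA in the results was not tested. The ranges of the 2 groups overlapped for the cholangiocyte (715 to 818 CPM over all libraries), endothelial (50.1 to 61.5 CPM) and stellate cell lists (23.1 to 26.4 CPM). In bulk RNA, fewer cells with a transcript and less of it per cell cannot be told apart.

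Huh7 cells carried transcripts of most of this transport system. 27 of the 30 genes had enough counts to be tested. SLC10A1, the sodium-dependent bile acid carrier NTCP, gave 1, 1 and 0 counts with overexpression and 0, 0 and 0 counts in controls. SLC22A4, a carrier of ergothioneine, gave 4, 3 and 5 counts against 4, 0 and 3. SLC47A2, a kidney carrier of organic cations, had 0 counts in every library, where a limit of 3 counts corresponds to 0.212 to 0.277 CPM and covers counting error only. These 3 genes were thus at or near the limit of detection in both groups, and no fold change is given for them.

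Levels were compared between genes as CPM per kilobase of merged exons. ABCC2, the canalicular pump MRP2 for bilirubin and drug conjugates, was the most abundant at 41.6 ± 3.17 with overexpression and 45.2 ± 0.552 in controls (SD, n = 3 each). SLC22A9, a liver organic anion carrier, was highest among the uptake genes at 31.1 ± 1.87 and 32.8 ± 4.26. SLCO1B3, which takes up bile acids and statins, followed at 18.6 ± 1.48 and 17.0 ± 2.06. Its close relative SLCO1B1 was far lower at 1.85 ± 0.0633 and 1.70 ± 0.314. SLCO1B3 exceeded SLCO1B1 between 9.03 and 11.1 times per kilobase in the 6 libraries, with overlapping ranges in the 2 groups.

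Among canalicular genes ABCB1, the multidrug pump P-glycoprotein, came after ABCC2 at 15.8 ± 1.25 with overexpression and 17.4 ± 1.28 in controls, in CPM per kilobase (SD, n = 3 each). At the other end, ABCB11, the bile salt export pump BSEP, reached 0.228 ± 0.0801 and 0.231 ± 0.105. Among the genes that carry bile acids, SLC10A1 and ABCB11 thus stood at ranks 29 and 27 of the 30 genes, while SLCO1B3 and SLC51B stood at ranks 3 and 5. Others stood between, with ABCC4 at rank 9, ABCC3 at 17, SLCO1B1 at 21 and SLC51A, the partner of SLC51B, at 22. For basolateral export, SLC51B stood at 13.6 ± 1.28 and 13.4 ± 2.02 and ABCC5, an exporter of cyclic nucleotides, at 10.6 and 11.6. ABCC2, SLC22A9 and SLC10A1 held ranks 1, 2 and 29 of the 30 genes, and by the deposited FPKM, which uses other gene lengths, these ranks were the same. ABCG8 moved from rank 24 to rank 14 under the deposited FPKM. It is 1 of 5 members (with ABCB11, ABCC2, ABCC4 and ATP8B1) whose gene model in the table differs from the annotation used for lengths, so their per-kilobase levels are less sure.

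**Figure D1:**
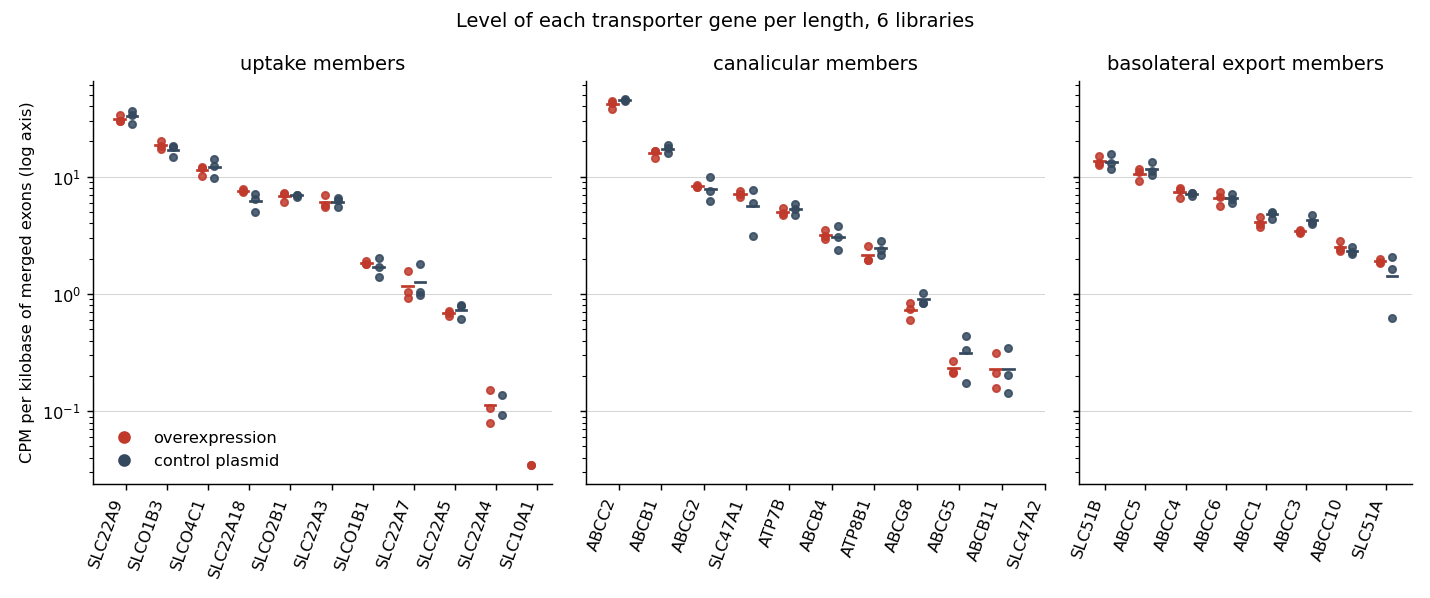
CPM per kilobase of merged exons (log axis) for each gene in the 3 overexpression (red) and 3 control (dark) libraries, with bars at the group means, in panels by direction of transport. Values of 0 cannot be drawn, so SLC47A2 has no point and SLC10A1 and SLC22A4 lack some. ABCC2 lies highest, SLC10A1 lowest, and the 2 colours overlap for most genes.

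Summed over their genes, the 3 directions of transport stood close together in the 2 groups. Uptake genes summed to 83.7, 84.2 and 88.2 CPM per kilobase in overexpression replicates 1 to 3 and to 90.7, 89.3 and 74.7 in control replicates 1 to 3. Canalicular genes summed to 79.6, 85.6 and 87.6 against 83.1, 91.1 and 90.5, and basolateral export genes to 48.2, 52.0 and 50.02 against 47.7, 52.0 and 54.4. A few genes made up much of these sums. ABCC2 alone gave means of 41.6 with overexpression and 45.2 in controls. Among uptake genes, SLC22A9 gave 31.1 and 32.8 and SLCO1B3 gave 18.6 and 17.0. The ratio of uptake to all export was 0.636 ± 0.0220 with overexpression and 0.611 ± 0.0898 in controls (SD, n = 3 each). The control libraries covered a wider range (0.515 to 0.694) that enclosed all 3 overexpression values (0.612 to 0.655).

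The comparison of the 2 plasmids asked whether any of these carriers changed with the circle. No member passed the test: edgeR's quasi-likelihood test called 0 of 27 at an adjusted p under 0.05, against 0.0399% of the 15055 genes tested (6 genes, 0.0266% higher and 0.0133% lower), and the members' adjusted p ran from 0.797 to 0.995. DESeq2 also called 0 members, against 0.186% of its genes. At an unadjusted p under 0.05 there was 1 member of 27, ABCC3, or 3.70%, where the share over all genes was 5.50% (2.42% higher and 3.08% lower). By DESeq2 it was again ABCC3 alone, where the share over all genes was 4.39%. The 2 groups were fully separated for 3 members, ABCC3, ABCC2 and SLC22A18, or 11.1%, where the share over all genes was 12.9%. All of these shares were at or below the background of all genes. The median log2 fold change of the members was -0.021, with 11 above 0 and 16 below, against 0.0023 for all genes, of which 49.5% were below 0.

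The members' estimates were narrow enough to bound the size of a change. Log2 fold changes ran from -0.44 for ABCG5 to 0.41 for SLC51A, with standard errors from 0.086 to 0.40 and a median of 0.14. The 95% interval stayed within a 2-fold change in either direction for 25 of the 27 members, all but ABCG5 and SLC51A, and within a 1.5-fold change for 19. An interval that includes 0 does not show that the groups were equal.

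**Figure D2:**
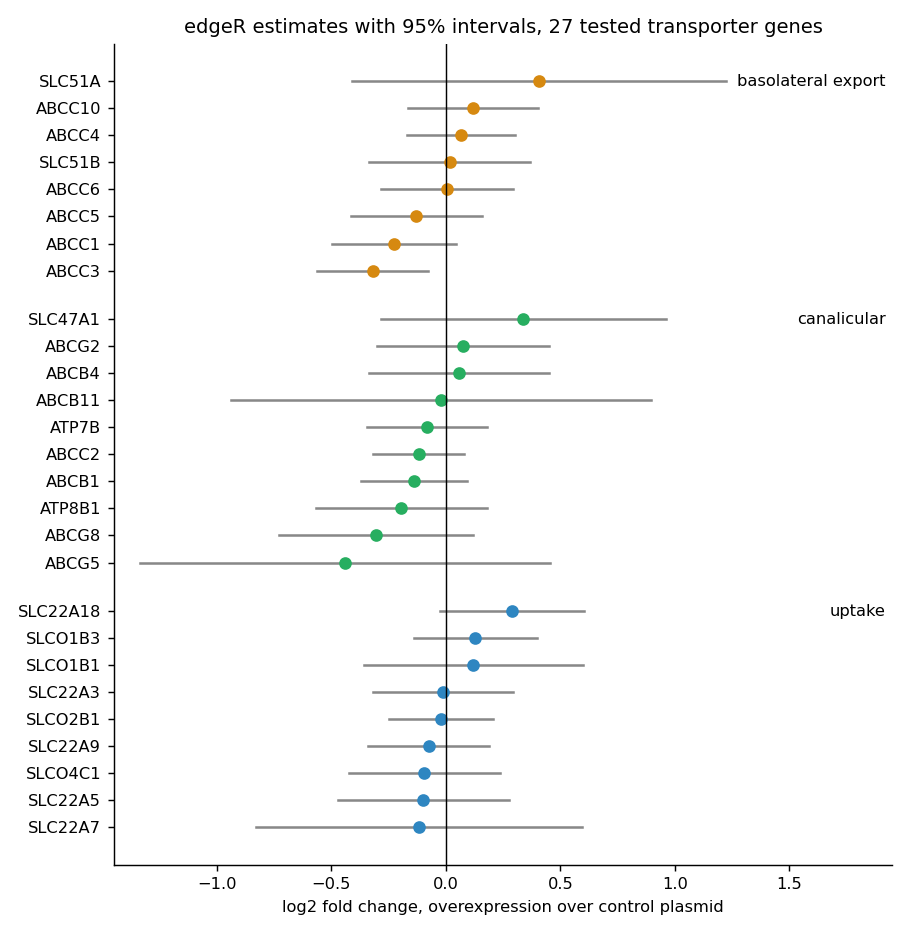
Log2 fold change of overexpression over control plasmid from edgeR (points) with 95% intervals (lines) for the 27 tested genes, ordered within uptake (blue), canalicular (green) and basolateral export (orange). The points run from -0.44 (ABCG5) to 0.41 (SLC51A), and the interval of ABCC3 alone leaves out 0.

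hsa_circ_0098181 was described by the study as binding miR-18a-3p, so the members were searched for the heptamer AGGGCAG, which pairs with the seed of this microRNA, within 3′ UTRs (longest coding transcript, GENCODE 29, GRCh38). The mature microRNA is shown from RefSeq (GRCh38.p14, chr13:91350797-91350819, plus strand) with its seed, bases 2 to 8, in capitals, and below it stand the first site of each member that holds one, with the heptamer in capitals and the flanking bases of the transcript in lower case.
hsa-miR-18a-3p: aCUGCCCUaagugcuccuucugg
ABCB11: tgaactcctcaAGGGCAGagaactgtctt
ABCG8: tttggagttagAGGGCAGaaggcaaggcc
SLC22A5: attgcttccccAGGGCAGgagagcgcaga
SLC22A7: gggagagcagaAGGGCAGgccctgcaact

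4 of the 30 members held a match, 13.3%, against 15.2% of 19145 coding genes and 16.4% of the 12556 of these that were tested. The sites shown lie at chr2:168923251-168923257 on the minus strand for ABCB11, chr2:43878640-43878646 for ABCG8, chr5:132394782-132394788 for SLC22A5 and chr6:43304783-43304789 for SLC22A7, the last 3 on the plus strand. ABCB11 had 2 matches and ABCG8 had 3. The second ABCB11 match and all 3 of ABCG8 lie outside the gene's bounds in the deposited table, which used other gene models. A match of 7 letters is a description and no proof of binding.

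None of the 4 genes passed the test. The log2 fold change of ABCB11, the bile salt pump, was -0.021 ± 0.40 (SE), and 131 counts over 6 libraries left a fold interval of 0.522 to 1.86. For ABCG8, a subunit of the sterol exporter, it was -0.30 ± 0.18 (SE). SLC22A5, the carnitine carrier, had -0.098 ± 0.16 (SE), and SLC22A7, an organic anion carrier, had -0.12 ± 0.31 (SE). When a library was left out, SLC22A5 ran from -0.21 to -0.034. The edgeR adjusted p-values of the 4 genes, in this order, were 0.993, 0.797, 0.905 and 0.943. The median of the 4 was -0.11, and that of all 2061 tested genes with a match was -0.022.

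No uptake gene was called. 9 of the 11 were tested, 3 had a log2 fold change above 0 and 6 below (66.7% below 0, against 49.5% of all genes), and the median was -0.021. SLC22A9 was at 78.7, 71.1 and 70.9 CPM in overexpression replicates 1 to 3 and at 86.2, 79.9 and 66.5 CPM in control replicates 1 to 3, a log2 fold change of -0.075 ± 0.12 (SE, edgeR adjusted p 0.899). SLCO1B3 was at 61.0, 64.9 and 71.3 CPM against 64.9, 63.8 and 51.8 CPM (0.13 ± 0.12 SE, adjusted p 0.833). For both genes the groups overlapped, and control replicate 3 was the lowest library. Without it the value of SLCO1B3 was 0.031.

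SLCO2B1, a carrier of sulfated steroids, was steady at 62.7 to 75.4 CPM with overexpression and 69.5 to 72.8 CPM in controls, and its fold interval of 0.841 to 1.15 was among the narrowest. SLCO4C1, better known from the kidney, was at 54.4 to 63.9 CPM against 51.8 to 75.2 CPM. SLC22A3, the organic cation carrier OCT3, was at 18.6 to 23.2 CPM against 18.3 to 22.1 CPM. SLCO1B1 was at 4.04, 4.28 and 4.04 CPM against 4.52, 3.75 and 3.13 CPM, with a fold interval of 0.780 to 1.51. In all 4 genes the groups overlapped.

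SLC22A18 (chr11:2899721-2925246), a member of the organic cation carrier family in an imprinted region, was the only uptake gene whose groups did not overlap. It was at 40.4, 39.4 and 41.5 CPM with overexpression and at 26.7, 37.9 and 34.6 CPM in controls. The means were 40.4 ± 1.07 and 33.0 ± 5.76 CPM (SD, n = 3 each), and the log2 fold change of 0.29 ± 0.14 (SE) did not pass the test (unadjusted p 0.066, adjusted p 0.797, edgeR). The share of all genes with overexpression values above all control values was 6.40%. Control replicate 1 lay lowest, and without it the log2 fold change was 0.16, while leaving out control replicate 2 gave 0.40 (unadjusted p 0.027, adjusted p 0.672). The antisense gene SLC22A18AS overlaps it on the other strand with 18 to 44 counts a library, against 289 to 570 for SLC22A18.

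No canalicular export gene was called, and none had an unadjusted p under 0.05. 10 of 11 were tested, 3 had a log2 fold change above 0 and 7 below (70% below 0, against 49.5% of all genes), and their median was -0.10, which ran from -0.16 to -0.066 when a library was left out. ABCC2 (chr10:99782732-99852192) was at 298, 336 and 344 CPM with overexpression and at 358, 349 and 355 CPM in controls, so that every overexpression value lay below every control value, as was true of 6.50% of all genes. The means differed by little, 326 ± 24.9 against 354 ± 4.33 CPM (SD, n = 3 each). Its log2 fold change was -0.12 ± 0.086 (SE), with an edgeR adjusted p of 0.798, and the fold interval ran from 0.803 to 1.06. Overexpression replicate 1 was the lowest, and without it the value was -0.058.

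ABCB1 was at 83.2, 95.8 and 95.6 CPM with overexpression and at 92.8, 108 and 102 CPM in controls, a log2 fold change of -0.14 ± 0.10 (SE, edgeR adjusted p 0.798). The highest overexpression value lay above the lowest control value, and leaving out a library moved the fold change between -0.19 and -0.074. ABCB4, which moves phosphatidylcholine into bile, lies beside ABCB1 on chromosome 7 and shares 205 stretches of 31 bases with it, so that reads could be split between the pair. It was at 23.9, 22.7 and 27.1 CPM against 29.1, 23.5 and 18.3 CPM (0.058 ± 0.17 SE, adjusted p 0.951).

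ABCG5 and ABCG8 form an obligate dimer that exports sterols and lie head to head on chromosome 2. ABCG8 gave 107, 120 and 75 counts with overexpression and 93, 122 and 103 counts in controls, and ABCG5 gave 14, 11 and 10 against 7, 19 and 15. The ratio of ABCG5 to ABCG8 counts was 0.0917 to 0.133 with overexpression, inside the 0.0753 to 0.156 of the controls. The 2 genes share 110 stretches of 31 bases, so reads could be split between them and the ratio is less sure. The log2 fold change of ABCG5 was -0.44 ± 0.39 (SE, edgeR adjusted p 0.832). With so few counts its fold interval of 0.396 to 1.37 leaves much room, and the value was -0.14 without control replicate 2 and -0.72 without control replicate 1. For ABCG8 it ran from -0.42 to -0.18 when a library was left out.

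ABCG2, the multidrug and urate exporter BCRP, was tight with overexpression at 41.1, 41.5 and 42.6 CPM and spread out in controls at 31.01, 37.9 and 49.8 CPM. Its log2 fold change of 0.075 (standard error 0.16, edgeR adjusted p 0.928) was -0.071 without control replicate 1 and 0.28 without control replicate 3. ATP7B, the copper ATPase of Wilson disease, was at 45.8 to 52.0 CPM against 45.1 to 56.7 CPM, and ATP8B1, the phospholipid flippase FIC1, at 13.6 to 18.02 CPM against 15.1 to 19.9 CPM. The groups of all 3 genes overlapped, with fold intervals of 0.788 to 1.13 for ATP7B and 0.675 to 1.13 for ATP8B1, whose log2 fold change ran from -0.34 to -0.080 when a library was left out. TMEM30A, the partner that ATP8B1 needs to leave the endoplasmic reticulum, was at 179 ± 47.6 CPM with overexpression and 165 ± 27.9 CPM in controls (SD, n = 3 each).

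SLC47A1 (chr17:19495385-19579034), the organic cation exporter MATE1, had control values that differed over 2-fold. It was at 43.3, 40.7 and 38.1 CPM with overexpression and at 17.9, 44.1 and 34.4 CPM in controls. The low value belonged to control replicate 1, the library with the high mitochondrial share, and the part of that library's composition in this value was not tested. With all libraries the log2 fold change was 0.34 ± 0.27 (SE, edgeR adjusted p 0.816). Leaving out control replicate 1 gave 0.054, and leaving out control replicate 2 gave 0.63 (unadjusted p 0.042, adjusted p 0.672).

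**Figure D3:**
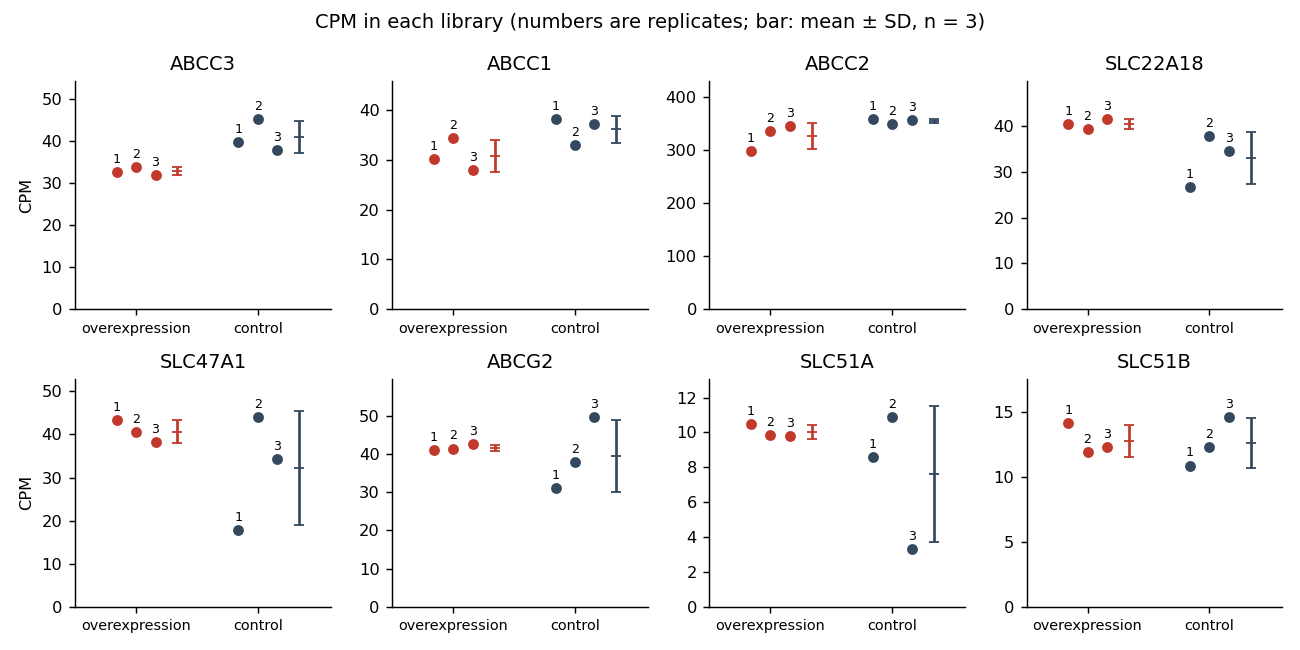
CPM in each library for 8 genes, with replicate numbers above the points and the mean ± SD (n = 3) beside each group, overexpression in red and control in dark. ABCC3 values with overexpression (32.0 to 33.9) lie below all controls (37.9 to 45.2), while SLC47A1 and SLC51A each have 1 low control library (17.9 and 3.29).

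Basolateral export held the only member under an unadjusted p of 0.05. All 8 genes were tested, 5 had a log2 fold change above 0 and 3 below, and the median was 0.011. ABCC3 (chr17:50634777-50692252) encodes MRP3, which returns bile acid and glucuronide conjugates to the blood. It was at 32.6, 33.9 and 32.0 CPM with overexpression and at 39.8, 45.2 and 37.9 CPM in controls. All 3 overexpression values lay below all 3 controls, and the means were 32.8 ± 0.976 and 40.9 ± 3.82 CPM (SD, n = 3 each). The log2 fold change was -0.32 ± 0.11 (SE, unadjusted p 0.016, adjusted p 0.797, edgeR). The fold interval was 0.677 to 0.949, before any correction for the number of genes. An unadjusted p under 0.05 with a lower level was found for 3.08% of all genes. Leaving out a library moved the value between -0.37 and -0.24 and the unadjusted p between 0.013 and 0.067, and it was above 0.05 without overexpression replicate 3 (0.051) or control replicate 2 (0.067).

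ABCC1 (chr16:15949577-16143074), the conjugate pump MRP1, was at 30.1, 34.4 and 28.0 CPM with overexpression and at 38.2, 33.0 and 37.1 CPM in controls. Overexpression replicate 2 lay above control replicate 2, so the groups overlapped. Its log2 fold change was -0.23 ± 0.12 (SE, unadjusted p 0.089, adjusted p 0.797, edgeR). Without overexpression replicate 2 the value was -0.31 (unadjusted p 0.045, adjusted p 0.896). Over the 7 ABCC members the median log2 fold change was -0.12, with 3 above 0 and 4 below.

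ABCC5 was at 106, 132 and 125 CPM against 118, 128 and 151 CPM, a log2 fold change of -0.13 ± 0.12 (SE, edgeR adjusted p 0.839) that was -0.20 without control replicate 1 and -0.020 without control replicate 3. ABCC4, the pump MRP4 for cyclic nucleotides and bile acids, was at 56.6 to 69.3 CPM against 59.3 to 62.2 CPM, its fold interval was 0.889 to 1.23, and its log2 fold change ran from 0.0061 to 0.15 when a library was left out. ABCC10 was at 18.9 to 22.7 CPM against 17.6 to 20.2 CPM, and ran from 0.034 to 0.18. The groups of these 3 genes overlapped.

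ABCC6, the gene of pseudoxanthoma elasticum, was at 42.4, 55.5 and 50.9 CPM with overexpression and 45.5, 53.7 and 49.0 CPM in controls. Its count is uncertain because the pseudogenes ABCC6P1 and ABCC6P2 share 1449 and 847 stretches of 31 bases with it, and ABCC6P1 held 3390 counts over the 6 libraries against 3727 for ABCC6. The log2 fold change was 0.0050 ± 0.13 (SE) for ABCC6 alone and -0.080 ± 0.092 (SE) for the 3 genes summed (edgeR adjusted p 0.995 and 0.862).

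SLC51A and SLC51B encode the alpha and beta subunits of the bile acid exporter OST and work only together. SLC51B (chr15:65045370-65053396) was at 14.2, 11.9 and 12.3 CPM with overexpression and at 10.9, 12.3 and 14.6 CPM in controls (log2 fold change 0.017 ± 0.15 SE). SLC51A (chr3:196211487-196243178) was at 10.48, 9.85 and 9.78 CPM with overexpression and at 8.58, 10.9 and 3.29 CPM in controls. The low value was control replicate 3, where 40 counts of SLC51A stood beside 178 of SLC51B. The ratio of SLC51A to SLC51B counts was 0.225 in that library and between 0.740 and 0.883 in the other 5. Per kilobase, SLC51B exceeded SLC51A 6.81 to 7.61 times with overexpression and 6.38 to 25.1 times in controls. The log2 fold change of SLC51A was 0.41 ± 0.36 (SE, edgeR adjusted p 0.830), and it was 0.042 without control replicate 3 and 0.77 without control replicate 2 (unadjusted p 0.070). PCYT1A, a gene on the other strand that overlaps SLC51A and held 10161 counts over the libraries against 668, was at 144 CPM in control replicate 3 and 129 to 138 CPM in the others.

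**Figure D4:**
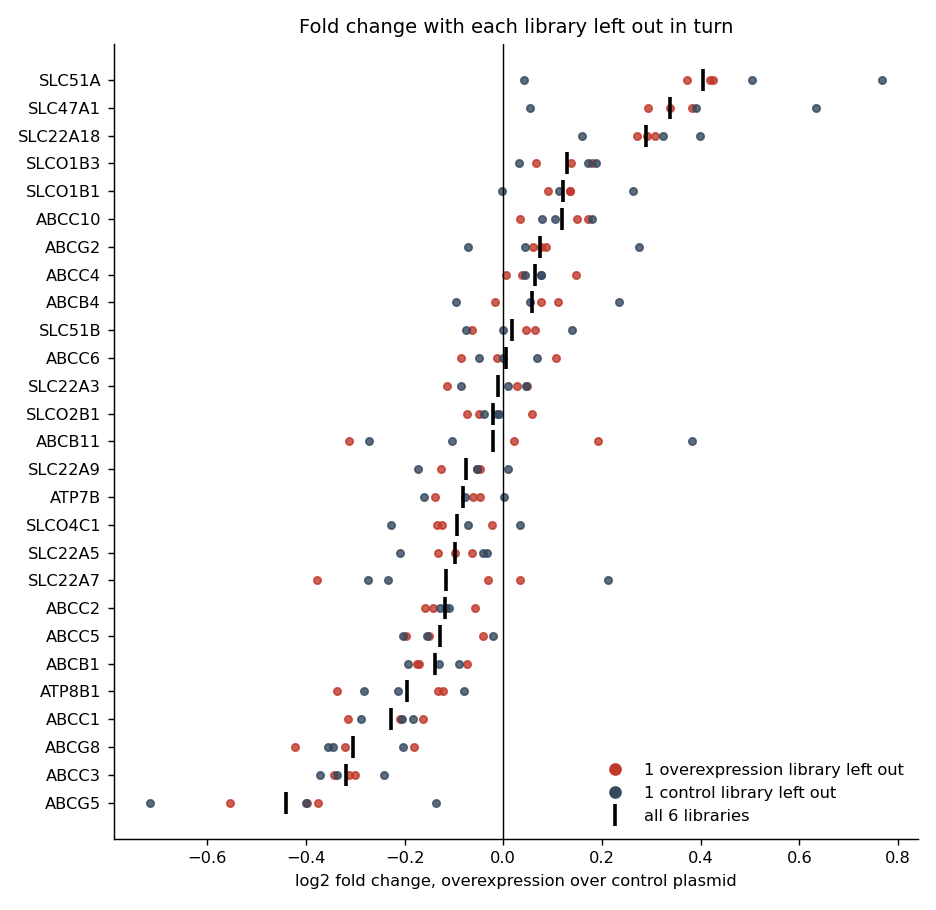
Log2 fold change of the 27 tested genes with all 6 libraries (black bars) and with each library left out in turn (red points: an overexpression library, dark points: a control library). SLC51A and SLC47A1 move to 0.042 and 0.054 without 1 control library each, while all 6 points of ABCC3 lie between -0.37 and -0.24.

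Control libraries spread more than overexpression libraries for these genes. The highest control value was over 1.5 times the lowest for 7 of the 27 tested members, and the same held for 2 in the overexpression group. The median coefficient of variation was 12.98% in controls and 9.35% with overexpression. These measures were not taken over all genes, so whether the wider control spread was particular to the members was not tested. Across all genes, a different measure on raw counts, chi-square per degree of freedom, was 19.1 and 20.9 for the pairs holding control replicate 1. It was 10.6 for control replicates 2 and 3, and 10.1 to 13.6 for the overexpression pairs. The lowest of the 6 libraries was control replicate 1 for 8 members, overexpression replicate 1 for 8 and control replicate 3 for 7.

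3 lists of genes that work with these carriers were examined. None of their members was called by edgeR. For the transport regulators, 15 of 16 were tested, with 11 above 0 and 4 below and a median log2 fold change of 0.066. Of these, 3 had an unadjusted p under 0.05, all higher. They made up 20% of those tested, against 5.50% of all genes in either direction and 2.42% in the higher direction. The list was chosen with these results known, and it was given no test of its own. The 3 genes were NFE2L2, CEBPA and PPARA, transcription factors of the antioxidant response, of hepatocyte identity and of fatty acid metabolism. PPARA is the gene the study itself followed, so it is no independent member. NFE2L2 was at 511, 228 and 471 CPM with overexpression and at 179, 217 and 126 CPM in controls, without overlap (log2 fold change 1.21 ± 0.30 SE, unadjusted p 0.0036, adjusted p 0.797, edgeR). CEBPA was at 350, 325 and 329 CPM against 216, 309 and 277 CPM, also without overlap (0.32 ± 0.13 SE, unadjusted p 0.037, adjusted p 0.797, edgeR). Genes without overlap made up 20% of the regulators tested, against 12.9% of all genes. HNF4A, also a hepatocyte marker of this report, was 1 of the 4 regulators below 0. It was at 76.2, 114 and 85.6 CPM against 197, 100 and 105 CPM, with overlap (-0.54 ± 0.27 SE, edgeR adjusted p 0.797). NR1H4, the bile acid receptor FXR, was at 155 ± 10.8 CPM and 141 ± 17.97 CPM (SD, n = 3 each), with a difference of 0.13 ± 0.11 (SE) on the log2 scale.

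For bile acid synthesis and conjugation, 12 of 16 genes were tested, 0 had an unadjusted p under 0.05, and the median was 0.13 with 11 above 0 and 1 below. CYP7A1, the rate-limiting enzyme of the main pathway, gave 0, 0 and 0 counts with overexpression and 1, 0 and 0 in controls. For canalicular scaffold, trafficking and cholestasis genes, 17 of 18 were tested, the median was -0.072 with 5 above 0 and 12 below, and 1 had an unadjusted p under 0.05 (5.88%, against 5.50% of all genes). This was STX3, a syntaxin of apical membranes, at 82.4, 93.2 and 86.0 CPM with overexpression and 100, 96.5 and 132 CPM in controls (-0.33 ± 0.13 SE, edgeR adjusted p 0.797).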

How the data were processed

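Total RNA of 6 Huh7 libraries was sequenced, and groups and replicate numbers follow the sample titles. The authors deposited 1 table holding raw read counts and FPKM values per gene. The submitters' processing notes name TopHat2 2.0.9, a spliced aligner, and hg38. How genes were counted, and with or without strand, is not given in the sources used here. Of the gene IDs, 98.5% were in GENCODE 29, of which 94.8% had identical coordinates (25 of the 30 members). Genes that overlap or share sequence may therefore exchange reads.

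Genes were tested with edgeR 4.0.16 (R 4.3.3): filterByExpr (minimum count 10), TMM scaling and the quasi-likelihood test on group alone, two-sided, Benjamini-Hochberg over 15055 genes. CPM use TMM library sizes, standard errors come from the F statistic, and 95% intervals from the test's degrees of freedom. The biological coefficient of variation was 16.1%. Level per length divides CPM by merged GENCODE 29 exons. Overlap of groups compares 3 values with 3. Shared sequence means at least 50 identical stretches of 31 bases, each found in at most 20 genes. No pair of replicates agreed within sampling noise (chi-square 10.1 to 20.9 per degree of freedom).

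The members, the lists and the tests were chosen with earlier results of these data known. All 30 members are named, with SOX5 and listed genes beside their list's count or where a member overlaps or resembles them. Members at an unadjusted p under 0.05, without overlap between groups, or highest per length in their direction are described at length, and ABCC1, SLC47A1 and SLC51A were added after their values were seen. The genes named from the lists were also chosen after their values were seen. Symbols missing from the table were matched through older symbols. Alternatives were RLE and upper-quartile scaling, DESeq2 1.42.0, 2 other count filters, limma 3.58.1 with trend on log2(FPKM + 1) where 3 libraries reached 1 FPKM, a block for replicate number, and each library left out in turn. Summing ABCC6 with its pseudogenes, and ranking by the deposited FPKM, were added after the data were seen. The tests were tried on simulated data first. The values of 1 listed gene are not reported here, though it is kept in the numbers of genes.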

Additional observations from a re-analysis of the deposited data

How the results depend on the processing

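The count of 0 called members, and of 0 called genes in the related lists, held in the 13 alternative fits. SOX5 stayed called, with log2 fold changes from 5.32 to 6.003. Among all genes, DESeq2 called 8 higher and 20 lower against 4 and 2 for edgeR. Leaving out 1 library gave 1 (control replicate 3) to 7 genes higher and 2 to 9 lower, with 7 and 9 without overexpression replicate 2, 8 lower without overexpression replicate 3 and 6 lower without control replicate 2. A replicate block gave 2 higher and changed no member's call. Over genes as a whole, same-numbered libraries did not deviate together (correlations across genes of -0.036, -0.023 and -0.031), so the numbers are not read as pairs. These correlations cannot show that no single gene shared a deviation. The hepatocyte marker FGA was at 627 CPM in overexpression replicate 3 and 608 CPM in control replicate 3, against 1372 to 1551 CPM in the other libraries. The members' median ran from -0.061 to 0.027 when 1 library was left out and the canalicular median from -0.16 to -0.066.

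Of 345 alternative values of single members, 316 kept their direction and 29 reversed, in 12 members whose own values lay between -0.12 and 0.12. SLCO2B1 was 0.00055 and SLC22A3 0.0100 under limma, SLC22A3 was 0.0037 under upper-quartile scaling, ABCB11 was 0.0025 with the replicate block, and ABCC6 was -0.080 summed with its pseudogenes. With 1 library left out, SLCO1B1 ran from -0.0024 to 0.26, SLCO2B1 from -0.073 to 0.058, SLCO4C1 from -0.23 to 0.034, SLC22A3 from -0.11 to 0.047, SLC22A7 from -0.38 to 0.21 and SLC22A9 from -0.17 to 0.0094. ABCB4 ran from -0.095 to 0.23, ABCB11 from -0.31 to 0.38, ABCG2 from -0.071 to 0.28, ATP7B from -0.16 to 0.0013, ABCC6 from -0.085 to 0.11 and SLC51B from -0.076 to 0.14. The cause was not tested. Under limma 23 members were tested and with a mean of at least 50 counts 24, because the others lay under those filters. Members with under 20 counts a library, such as ABCG5, are limited by depth.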

Other observations

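Beyond the 30 genes, 40 other ABC and SLC carriers of liver were listed, of which 28 were tested. 18 had a log2 fold change above 0 and 10 below, with a median of 0.038, none was called by edgeR, and 1 had an unadjusted p under 0.05 (3.57%, against 5.50% of all genes). This was SLC22A15, an organic zwitterion carrier, at 7.93, 8.35 and 7.51 CPM with overexpression and 10.98, 10.4 and 9.96 CPM in controls, without overlap (log2 fold change -0.40 ± 0.14 SE, edgeR adjusted p 0.797). The lactate carrier SLC16A1 was at 180, 175 and 173 CPM against 151, 166 and 158 CPM, also without overlap (0.15 ± 0.080 SE, adjusted p 0.797). Genes without overlap made up 10.7% of this list, against 12.9% of all genes.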
